A study of Mus musculus with 12 samples.

Results

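The genes described here are 10 cartilage matrix genes, taken by name from the 24054 rows of a table of expected counts (reads shared out among genes, before any scaling) for primary mouse embryonic fibroblasts. They are the cartilage collagen genes Col2a1, Col9a1, Col9a2, Col9a3, Col11a1 and Col11a2, the non-collagen matrix genes Acan, Comp and Matn4, and Sox9, the transcription factor gene of the chondrocyte lineage. All 10 passed the filter on low counts, which left 14876 genes to be tested. Polyadenylated RNA was sequenced from 12 libraries in 4 groups of 3, titled WT, Blm -/-, Recql -/- and Blm -/- Recql -/-. The knockout labels are shortened here to Blm KO and Recql KO, and both together to double KO. WT carries neither label. BLM and RECQL1 are both RecQ family DNA helicases, and the study asked which transcripts differ from WT under each genotype. The cells were kept as primary cultures in low oxygen. The labels name no treatment, embryo age, strain or targeted exon. They also leave unsaid whether the replicates of a group are separate embryos or cultures, and the p-values cover only the spread seen among libraries, some of it possibly technical. Within each group every pair of libraries differed by more than counting noise, the chi-square divided by its degrees of freedom being 25.9 to 169.

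Hyaline cartilage is built on thin fibrils in which type II collagen, made from Col2a1, is copolymerised with type XI collagen and carries type IX collagen on its surface. Type IX is a heterotrimer of the Col9a1, Col9a2 and Col9a3 chains, and type XI joins the Col11a1 and Col11a2 chains with a further chain that is itself encoded by Col2a1. Aggrecan, the product of Acan, is the large proteoglycan that holds water between the fibrils, COMP is a pentameric glycoprotein that binds several collagens, and matrilin-4 (Matn4) is an adaptor protein of the matrix. SOX9, with SOX5 and SOX6, drives many of these genes in chondrocytes. Embryonic fibroblast cultures are prepared from most of the embryo body and can therefore hold cells of skeletal origin.

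Sequence just before a RefSeq start is shown for 4 of the genes, to set members called between groups (Col9a1, Acan and Col11a1) beside 1 that was not called (Col11a2). Each window is the 250 bases before a RefSeq start on GRCm38.p6, the mm10 build, written 5′ to 3′. The starts used for Acan and Col11a2 lie upstream of the gene starts in GENCODE M21 given with the values, and are not starts of a transcript there. Capitals mark a match to a SOX-family recognition word. The words searched, on both strands, were AACAAAG or AACAATG, then ATCAAAG or ATCAATG, then TACAAAG or TACAATG, and then TTCAAAG or TTCAATG.
Col9a1, chr1:24177360-24177609, + strand: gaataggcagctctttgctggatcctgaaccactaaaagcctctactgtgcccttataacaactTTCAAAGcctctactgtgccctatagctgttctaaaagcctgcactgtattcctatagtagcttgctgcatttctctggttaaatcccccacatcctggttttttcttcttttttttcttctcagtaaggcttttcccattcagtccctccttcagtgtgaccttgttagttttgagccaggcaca
Acan, chr7:79052976-79053225, + strand: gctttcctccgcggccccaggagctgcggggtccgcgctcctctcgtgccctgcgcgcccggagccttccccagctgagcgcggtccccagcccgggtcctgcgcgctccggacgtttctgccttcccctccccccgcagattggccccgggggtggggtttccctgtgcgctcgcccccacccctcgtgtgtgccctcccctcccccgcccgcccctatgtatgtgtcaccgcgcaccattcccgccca
Col11a1, chr3:114030290-114030539, + strand: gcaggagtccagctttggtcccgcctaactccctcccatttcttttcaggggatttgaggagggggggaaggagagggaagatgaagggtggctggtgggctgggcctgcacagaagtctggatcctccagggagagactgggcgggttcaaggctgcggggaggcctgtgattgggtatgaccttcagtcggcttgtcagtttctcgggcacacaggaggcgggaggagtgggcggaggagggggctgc
Col11a2, chr17:34038888-34039137, + strand: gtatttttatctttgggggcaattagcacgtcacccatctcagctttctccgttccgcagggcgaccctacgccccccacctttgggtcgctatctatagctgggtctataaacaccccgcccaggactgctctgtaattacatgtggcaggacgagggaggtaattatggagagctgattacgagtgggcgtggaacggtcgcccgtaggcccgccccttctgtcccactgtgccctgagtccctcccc
The window of the upstream start of Col9a1 holds 1 such word, TTCAAAG, beginning 186 bases before the start. None lies in the windows printed for Acan, Col11a1 and Col11a2, which says only that these letters are not there. Of 8 windows found for 6 of the 10 genes, 2 held a word, the other one being that of Col9a2 (CTTTGAT, 178 bases before the start), and 21.8% of all 32851 windows of this length did. The windows differ in base composition, with 43.6% G or C in the one printed for Col9a1, 74.4% for Acan, 62.4% for Col11a1 and 57.6% for Col11a2.

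Library totals ran from 47758552 to 59296354 expected counts, so that 3 counts correspond to 0.0506 to 0.0628 CPM, the unit of level used here (counts scaled to the library total after TMM correction). Blm itself was lower than in WT by 5.01-fold under the Blm KO label and by 3.77-fold in double KO (edgeR adjusted p = 0.00211 and 0.0105). Leaving out WT replicate 1 or double KO replicate 1 ended the call for double KO, and both calls ended, with log2 fold changes of -1.87 and -1.58 against -2.33 and -1.91, in a fit on the libraries rich in Y-linked transcripts described next, which has 1 library per knockout label. Recql did not pass under either label that names it. It stood at 27.7 ± 1.86 CPM in WT (SD, n = 3), against 25.2 ± 4.16 for libraries labelled Recql KO and 26.3 ± 8.56 for those labelled double KO, so these labels are used only as names of libraries. It overlaps Pyroxd1 on the opposite strand, and reads of the overlap may not be separated. Transcripts of 4 Y-linked genes summed to between 229 and 283 CPM in all 3 WT libraries and in 1 library of each other label, and to between 0.676 and 28.7 CPM in the rest. Recql KO replicate 2 held 28.7 CPM of them together with 310 CPM of Xist. Fibroblast markers differed widely in level. Col1a1 was at 10006 ± 358 CPM in WT and 5541 ± 960 in Recql KO. Lum was at 27.2 ± 19.5 and 11.5 ± 13.9 CPM in these groups. The sum of 13 such markers ran from 30654 to 31851 CPM in WT and from 16789 to 21233 in Recql KO.

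The 10 genes made up 0.115% to 0.251% of all counts in WT, 0.166% to 0.174% in Blm KO, 0.0246% to 0.0337% in Recql KO and 0.081% to 0.187% in double KO. In WT most of this came from a pair of fibrillar chains. Scaled by the longest annotated coding transcript, Col2a1 stood at 148 ± 87.9 CPM per kb in WT and Col11a1 at 91.5 ± 41.7 (SD, n = 3). Sox9 followed at 13.1 ± 1.72 CPM per kb, Comp at 7.91 ± 4.71 and Acan at 4.09 ± 0.58. The 3 type IX chains lay close together, at 1.99 ± 0.757 for Col9a1, 2.35 ± 0.95 for Col9a2 and 1.88 ± 0.00487 for Col9a3, within the spread of the first pair. Col11a2, the partner chain of Col11a1, was at 0.887 ± 0.368 and Matn4 at 0.335 ± 0.071 CPM per kb. In Recql KO the order was different, with Col11a1 at 25.4 ± 5.95 CPM per kb, Sox9 at 10.96 ± 1.95 and Col2a1 at 7.85 ± 3.39.

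**Figure D1:**
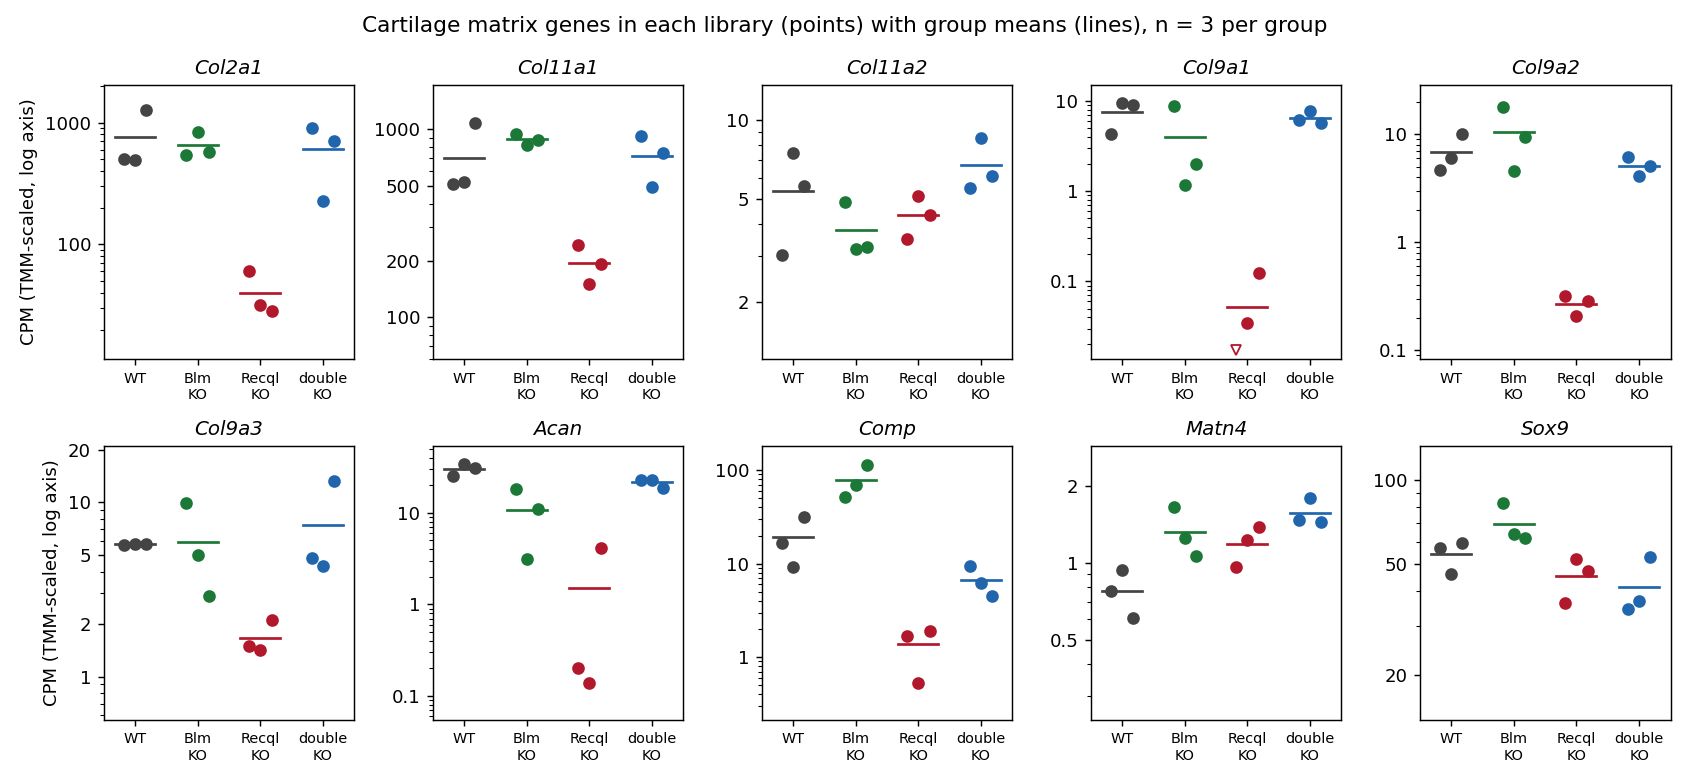
Level of each of the 10 genes in every library (points, TMM-scaled CPM on log axes with different ranges) with the mean of 3 libraries as a line; the open triangle is a library with 0 counts, drawn at the foot of the axis. In Recql KO 7 genes lie below every WT library, while Sox9, Col11a2 and Matn4 do not.

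The libraries labelled Recql KO were set against WT first, since this is where the genes differed most. Transcripts of 7 of the 10 genes fell, each by more than 2-fold, and none rose by edgeR (Col2a1, Col9a1, Col9a2, Col9a3, Col11a1, Acan and Comp). The median log2 fold change of the 10 was -2.83, beside -0.01 over all genes tested. The genes were chosen with earlier results of these data known, so these values are given as a description. By the same edgeR test 29.9% of all genes were called (15.6% of all genes lower and 14.2% higher). Many other transcripts thus differed under this label as well. Levels did not overlap between the groups for 8 of the 10, with 7 lower and 1 higher (Matn4), where 49.3% of all genes showed no overlap (25.4% lower and 23.9% higher). In RNA from a bulk culture, fewer cells of a type and less RNA per cell cannot be told apart. Restricting the fit to the 6 libraries rich in Y-linked transcripts, of which 1 is labelled Recql KO, left 4 of the 10 called, namely Col9a1, Col9a2, Col9a3 and Acan.

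Among the fibrillar collagens, Col2a1 (mm10 chromosome 15, 97975602 to 98004695), which encodes the type II chain, was at 499, 495 and 1275 CPM in WT and at 59.98, 31.5 and 28.6 in Recql KO. All 3 libraries labelled Recql KO lay far below the lowest WT library, and WT replicate 3 stood above the other two. Col2a1 was 18.9-fold lower (-4.24 ± 0.59 as log2 fold change with its SE, edgeR adjusted p = 0.000937), and the log2 fold change ran from -4.65 to -3.63 as each library was left out. Col11a1 (chromosome 3, 114030540 to 114220718), the first type XI chain, was at 509, 524 and 1071 CPM in WT and 241, 150 and 192 in Recql KO. It fell 3.61-fold (-1.85 ± 0.31, edgeR adjusted p = 0.00229), less than Col2a1, and again WT replicate 3 was the highest library. Per unit length, Col2a1 exceeded Col11a1 by 1.47, 1.42 and 1.79 times in the WT libraries, and the ratio was 0.374, 0.316 and 0.224 in Recql KO. Neither call held with only libraries high in Y-linked transcripts, where the log2 fold changes were -3.66 and -1.54 (edgeR adjusted p = 0.0774 and 0.159).

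Col11a2 (chromosome 17, 34039437 to 34066685), the second type XI chain, did not follow its partner. Its level was 3.03, 7.47 and 5.59 CPM in WT and 3.48, 5.10 and 4.34 in Recql KO, and the groups overlapped. The log2 fold change was -0.32 ± 0.31 (edgeR adjusted p = 0.471). The Col11a1 to Col11a2 ratio per unit length was 132.5, 55.4 and 151.0 in WT and 54.6, 23.2 and 34.9 in Recql KO.

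All 3 type IX chains fell, by very different amounts. Col9a1 (chromosome 1, 24177610 to 24252684), whose upstream window holds the SOX word printed above, had 4.29, 9.48 and 9.14 CPM in WT. In Recql KO it had 0, 2 and 6 expected counts, or 0, 0.0343 and 0.123 CPM. Its log2 fold change was -7.19 ± 1.00 (146-fold lower, edgeR adjusted p = 0.000978), and -8.57 without Recql KO replicate 3, the library with 6 counts. Col9a2 (chromosome 4, 121039385 to 121055322) stood at 4.66, 5.98 and 9.99 CPM in WT and at 0.315, 0.207 and 0.287 in Recql KO, lower by 25.4-fold (-4.67 ± 0.54, edgeR adjusted p = 0.000454). These libraries were tightly grouped at the low level, with a mean of 0.269 ± 0.0563 CPM.

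Col9a3 (chromosome 2, 180597790 to 180622189) was at 5.71, 5.74 and 5.73 CPM in WT and 1.501, 1.41 and 2.11 in Recql KO, a 3.42-fold fall (-1.78 ± 0.50, edgeR adjusted p = 0.0233). This call was lost without WT replicate 1 or 3 and without Recql KO replicate 1 or 2 (edgeR adjusted p = 0.051 to 0.0848), and with a covariate for the Y-linked level (0.0655). Col9a3 overlaps Tcfl5 on the opposite strand and the strand setting of the counting is not given in the sources used here, so reads of the overlap cannot be told apart. Tcfl5 stood at 4.15 ± 0.204 CPM in WT and 10.2 ± 1.87 in Recql KO. The chains had similar levels per unit length in WT. In Recql KO they were at 0.0137 ± 0.0165 (Col9a1), 0.0921 ± 0.0192 (Col9a2) and 0.55 ± 0.125 CPM per kb (Col9a3), and the libraries of the 3 genes did not overlap.

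Of the non-collagen matrix genes, Acan (chromosome 7, 79053483 to 79115099) was at 25.4, 33.7 and 31.1 CPM in WT and at 0.204, 0.138 and 4.14 in Recql KO. It fell 20.5-fold (-4.36 ± 1.02, edgeR adjusted p = 0.0104). Recql KO replicate 3 stood more than an order of magnitude above the other libraries of its group, and without it the log2 fold change was -7.44. Comp (chromosome 8, 70373558 to 70382066) went from 16.7, 9.13 and 31.5 CPM to 1.69, 0.534 and 1.90, a 14-fold fall (-3.81 ± 0.58, edgeR adjusted p = 0.00144). It lost its call with only libraries high in Y-linked transcripts (-3.50, edgeR adjusted p = 0.102). Matn4 (chromosome 2, 164389393 to 164405160) was the 1 member with a positive log2 fold change, from 0.776, 0.934 and 0.607 CPM to 0.964, 1.22 and 1.37 (0.62 ± 0.25, edgeR adjusted p = 0.0892). It overlaps Rbpjl on the other strand, which was at 0 CPM in all WT libraries and at most 0.0351 CPM in any library.

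Sox9 (chromosome 11, 112782224 to 112787760), which encodes a direct activator of several of these genes in chondrocytes, did not pass in this comparison. Its level was 57.0, 46.2 and 59.5 CPM in WT and 36.4, 52.2 and 47.3 in Recql KO, with overlap between the groups (-0.26 ± 0.19, edgeR adjusted p = 0.329). Per unit length, Col2a1 exceeded Sox9 by 7.09, 8.70 and 17.4 times in the WT libraries, and the ratio was 1.34, 0.49 and 0.49 in Recql KO. Leaving out any 1 library moved the log2 fold change of Sox9 between -0.36 and -0.12.

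**Figure D2:**
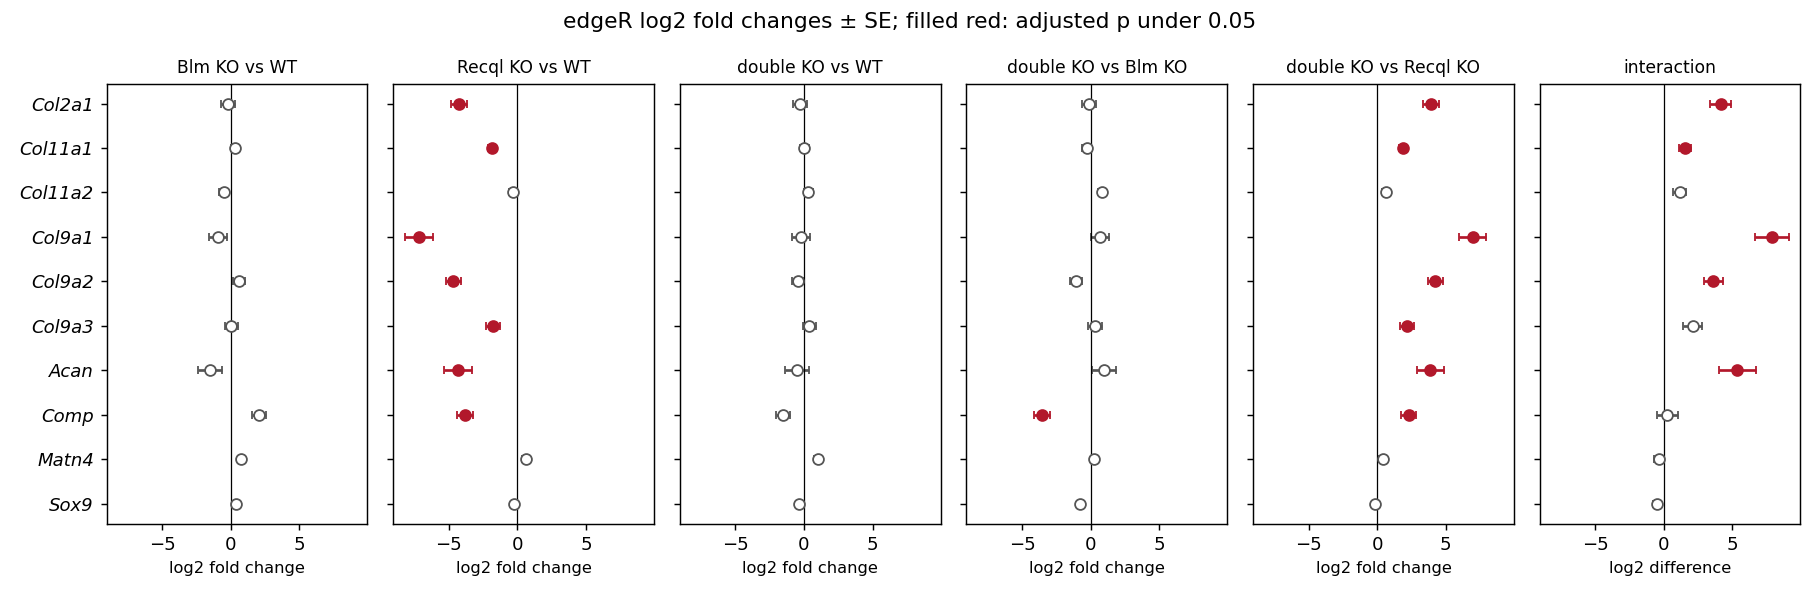
edgeR log2 fold change with its SE for the 10 genes (rows) in 5 comparisons and the interaction (panels); filled red points have an adjusted p under 0.05. The 7 genes lower in Recql KO than in WT are the same 7 that are higher in double KO than in Recql KO, and Comp is the 1 gene called between double KO and Blm KO.

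The Blm KO label on its own went with smaller differences. None of the 10 genes was called by edgeR, while 2 had an unadjusted p under 0.05 (Comp and Matn4). Over all genes 0.753% were called (0.363% higher and 0.39% lower). The median log2 fold change of the 10 was 0.19, beside 0.01 over all genes. Comp was at 52.0, 69.0 and 114 CPM in Blm KO, above every WT library (2.04 ± 0.52, edgeR adjusted p = 0.101), and DESeq2 called it (2.03, adjusted p = 0.0128). Acan stood at 17.98, 3.11 and 10.9 CPM, below every WT library (-1.49 ± 0.88, edgeR adjusted p = 0.378). Sox9 was at 83.2, 64.3 and 62.1 CPM and Matn4 at 1.64, 1.25 and 1.06, each above every WT library, and neither passed (0.37 and 0.77, edgeR adjusted p = 0.326 and 0.154). In all, 4 of 10 genes showed no overlap with WT, 3 higher and 1 lower, where 24.8% of all genes did (12.6% higher and 12.1% lower).

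Within Blm KO the libraries did not share 1 pattern. Replicate 1, the library high in Y-linked transcripts, held the most of every gene except Col2a1 and Comp, of which it held the least. Col9a1 was at 8.86 CPM there, against 1.18 and 2.03 in replicates 2 and 3. Replicate 2 held the most Col2a1 (837 CPM against 547 and 579) and the least Acan. The SE of Acan was 0.88, and that of Col9a1 was 0.66 around a log2 fold change of -0.92 (edgeR adjusted p = 0.465). These SEs rest on the spread over all 12 libraries, and were 0.86 and 0.65 for double KO against WT. The log2 fold change of Col2a1 was -0.21 ± 0.51 and that of Col11a1 0.33 ± 0.30.

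The double KO libraries were compared with WT, where again no member was called by edgeR, 2 had an unadjusted p under 0.05 (Comp and Matn4) and 0.121% of all genes were called (0.0739% higher and 0.0471% lower). DESeq2 called 1 of the 10, Matn4 (1.02, adjusted p = 0.0225). Col2a1 was at 895, 229 and 710 CPM, around the WT levels in 2 of 3 libraries, with a log2 fold change of -0.31 ± 0.51. Col9a1 was at 6.22, 7.69 and 5.72 CPM (-0.22 ± 0.65) and Col9a2 at 6.15, 4.13 and 5.06 (-0.43 ± 0.43), inside or overlapping the WT range. Acan stood at 22.8, 23.0 and 18.4 CPM, just below the lowest WT library (-0.49 ± 0.86, edgeR adjusted p = 0.881). Matn4 was at 1.47, 1.79 and 1.44 CPM, above every WT library (1.02 ± 0.25, edgeR adjusted p = 0.149). Comp was at 9.43, 6.20 and 4.49 CPM, overlapping the lowest WT library (-1.51 ± 0.52, edgeR adjusted p = 0.339). No overlap with WT was seen for 2 of the 10, namely Matn4 above and Acan below, where 14.1% of all genes had none (7.31% higher and 6.82% lower).

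Double KO and Recql KO, which share a Recql label and differ in the Blm label, stood far apart for these genes. The 7 genes named above were higher in double KO by edgeR, from 3.70-fold for Col11a1 to 125-fold for Col9a1, and none was lower, where 24.7% of all genes were called (13.2% higher and 11.6% lower). The libraries of 9 of the 10 lay higher without overlap, all but Sox9, where 43.6% of all genes had none (22.5% higher and 21.1% lower). Their log2 fold changes were 3.93 for Col2a1, 6.96 for Col9a1, 4.24 for Col9a2, 2.15 for Col9a3, 1.89 for Col11a1, 3.87 for Acan and 2.30 for Comp (edgeR adjusted p = 0.000659 to 0.0189). The calls on Acan and Col9a3 were lost without Recql KO replicate 1 or 2 and that on Comp without replicate 2 (edgeR adjusted p = 0.0504 to 0.0574), so that 4 of the 10 were called without replicate 2. With only libraries high in Y-linked transcripts 2 were called (Col9a1 and Acan), and Col2a1 was then at 1.93 (edgeR adjusted p = 0.299). This comparison shares the Recql KO libraries with the one against WT, so the fact that the same genes were called adds no separate evidence. Col11a2 (0.64 ± 0.31), Matn4 (0.40 ± 0.25) and Sox9 (-0.13 ± 0.19) did not pass.

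Double KO and Blm KO differed in 1 of the 10 genes. Comp was 11.7-fold lower in double KO, at 9.43, 6.20 and 4.49 CPM against 52.0, 69.0 and 114 (-3.55 ± 0.55, edgeR adjusted p = 0.0192), where 1.96% of all genes were called (0.934% higher and 1.02% lower). The call was lost without Blm KO replicate 3 (-3.17, edgeR adjusted p = 0.108), without double KO replicate 2 (-3.49, 0.0751) and in a fit on these groups alone (-3.54, 0.0529). Sox9 lay lower in every double KO library, at 34.5, 36.9 and 52.9 CPM against 62.1 to 83.2, and missed the threshold (-0.75 ± 0.19, edgeR adjusted p = 0.0718). It passed without double KO replicate 3 (-0.97, edgeR adjusted p = 0.0305) and by DESeq2 (adjusted p = 0.00597). Comp and Sox9 were both highest in Blm KO. The Comp level in Recql KO lay below that in double KO, while the Sox9 levels of those groups overlapped. In all, 4 of the 10 showed no overlap between double KO and Blm KO, 2 lower (Comp and Sox9) and 2 higher (Acan and Col11a2), where 26.2% of all genes had none (12% higher and 14.1% lower).

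The interaction asks whether the Recql label goes with a different change in the Blm KO background than in WT. It was called for 5 of the 10, each positive, where 10.4% of all genes were called (5.86% positive and 4.58% negative). The log2 difference was 7.89 ± 1.21 for Col9a1, 5.36 ± 1.33 for Acan, 4.14 ± 0.75 for Col2a1, 3.62 ± 0.68 for Col9a2 and 1.56 ± 0.43 for Col11a1 (edgeR adjusted p = 0.00601, 0.0321, 0.0111, 0.0123 and 0.0455). The calls on Col9a1, Col2a1 and Col9a2 held in all 12 fits that left out a library. Col11a1 lost its call in 10 of these 12 fits and Acan in 8, with edgeR adjusted p of at most 0.11 and 0.0838, and both lost it with no filter on low counts (0.0689 and 0.0663). Comp had a log2 difference of 0.26 ± 0.74, its level being lower in Recql KO than in WT and lower in double KO than in Blm KO. With only libraries high in Y-linked transcripts 1 of the 10 was called, namely Acan.

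**Figure D3:**
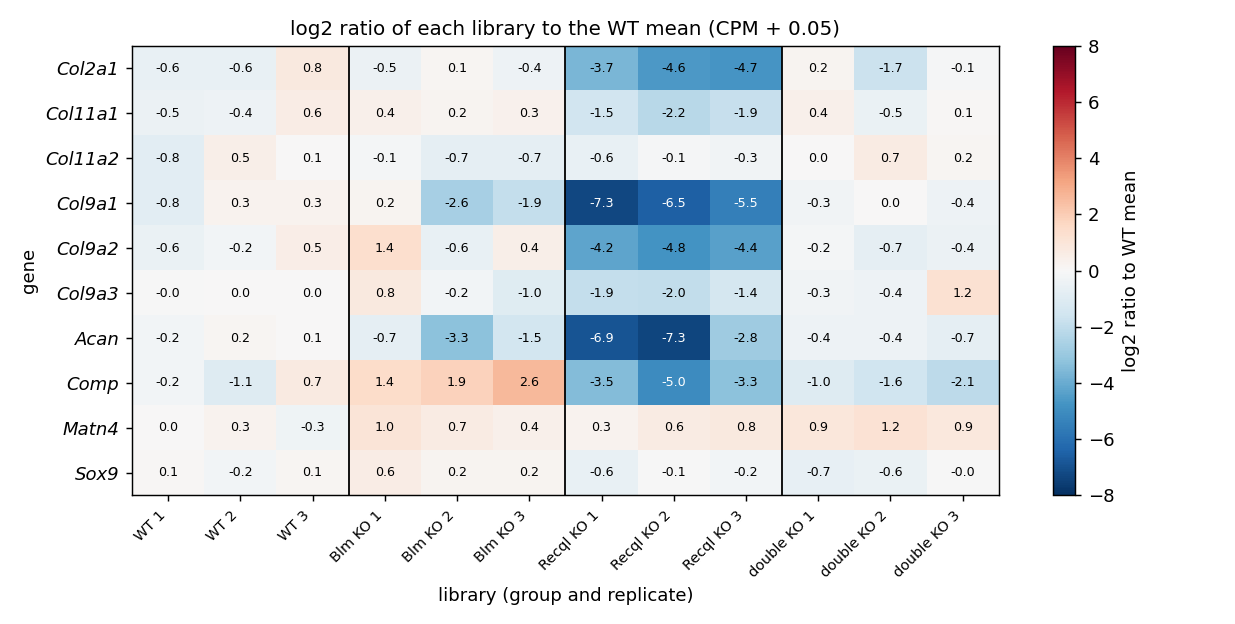
log2 ratio of each library to the WT mean, computed as CPM plus 0.05, for the 10 genes (rows) in 12 libraries (columns, grouped by label with black lines). Recql KO columns are low for 7 genes, Blm KO replicates 2 and 3 are low for Col9a1 and Acan, and Comp is high in Blm KO and low in double KO.

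Outside Recql KO the genes did not all vary together, as the map of ratios to WT shows. Over the 9 libraries of the other groups, the pairs of the 10 genes had r from -0.72 (Col11a2 and Comp) to 0.90 (Col9a1 and Acan) of log2 CPM. Col2a1 had r = 0.79 with Col11a1, -0.16 with Col9a1 and -0.17 with Acan. Comp had r = 0.72 with Sox9, 0.55 with Col9a2, 0.54 with Col11a1 and -0.58 with both Col9a1 and Acan. Col9a1 had r = 0.77 with Col11a2, and Col9a2 had 0.65 with Col11a1 and 0.62 with Sox9. These values describe libraries that share 3 labels, with no test, and not every pair is given. In double KO replicate 2, for example, Col2a1 was the lowest of the 9 at 229 CPM, while Col9a1 at 7.69 and Acan at 23.0 CPM were the highest of their group. Over all 12 libraries Col2a1 and Col9a1 had r = 0.85, a value that rests on the separation of Recql KO.

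The tested genes outside the list whose log2 levels were most like that of Col2a1 over the 12 libraries, among those with a mean of at least 1 CPM, were Lphn2 (r = 0.98), Wscd2 (0.98), Flot1 (0.98), 2010111I01Rik (0.97) and Mmp23 (0.97), followed by Abcc9, Mest, Foxd1, Gmds and Cdon (0.96 to 0.97). Over the 9 libraries without Recql KO, Wscd2 kept r = 0.95 and Abcc9 had 0.62. Mest, an imprinted gene, fell from a mean of 306 CPM in WT to 3.09 in Recql KO, and Wscd2 from 6.54 to 0.615. These values describe likeness in level only.

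Other genes of the chondrocyte programme were examined in the lists given in the processing section. Of 12 cartilage transcription factor genes 9 were tested, and 5 fell in Recql KO while none rose, beside 15.6% of all genes lower and 14.2% higher. Sox6, whose product acts with SOX9, was at 24.5 ± 16.2 CPM in WT and 2.96 ± 1.19 in Recql KO, 8.29-fold lower (edgeR adjusted p = 0.00176), and Sox5 from 14.9 ± 11.2 to 6.43 ± 1.12 without passing (-1.21, edgeR adjusted p = 0.125). Erg, a factor of joint cartilage and endothelium, was 71.3-fold lower, Mef2c, a factor of chondrocyte hypertrophy, 2.83-fold, Trps1 2.72-fold and Runx2, the osteoblast and hypertrophy factor, 1.36-fold. The Runx2 call was lost without Recql KO replicate 2, and those on Erg and Mef2c held in every fit run. With only libraries high in Y-linked transcripts Sox6, Trps1 and Runx2 were not called, at log2 fold changes of -3.22, -1.49 and -0.29 against -3.05, -1.44 and -0.44 in all libraries. In double KO against Blm KO, Trps1, Erg and Mef2c were lower (2.58-, 3.97- and 1.95-fold, edgeR adjusted p = 0.0307, 0.0473 and 0.0306), and all 3 calls were lost in a fit on those groups alone (edgeR adjusted p = 0.108, 0.147 and 0.138). Of the 12 fits that left out a library, the call was lost in 4 for Trps1, 9 for Erg and 5 for Mef2c, among them those without Blm KO replicate 3 and without double KO replicate 2.

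Of 20 further cartilage matrix genes 14 were tested, and 8 fell in Recql KO and none rose, with a median log2 fold change of -3.08, beside 15.6% of all genes lower and a median of -0.01. A gene that is high in only 1 group can pass the filter through that group. The list was also chosen with earlier results of these data known, so this share is given as a description. Col10a1, the collagen of hypertrophic cartilage, was the most abundant, at 289 ± 184 CPM in WT and 38.5 ± 20.1 in Recql KO (7.51-fold lower, edgeR adjusted p = 0.00632). With only libraries high in Y-linked transcripts Col10a1 was lower by more, at -4.06 against -2.91 in log2 fold change, without a call (edgeR adjusted p = 0.0772). Hapln1, whose product links aggrecan to hyaluronan, was 10.2-fold lower, at 5.77 ± 2.25 CPM in WT and 0.571 ± 0.376 in Recql KO. Matn3, a cartilage matrilin gene, was 10.7-fold lower, at 1.98 ± 0.797 and 0.185 ± 0.0915 CPM (edgeR adjusted p = 0.0032 for Hapln1 and 0.000564 for Matn3). Fmod, the fibromodulin gene, was 2.98-fold lower, a call lost in 6 of 12 fits with a library left out. Cnmd, the chondromodulin gene, Epyc, Otor and Scrg1 also fell, from means of 0.201 to 1.14 CPM in WT to 0.0115 or less. The call on Epyc was lost without WT replicate 1 or any 1 Recql KO library, and that on Otor without Recql KO replicate 1 or 3. Scrg1 had 0 counts in all 3 libraries labelled Recql KO. Cnmd, Epyc, Otor and Scrg1 were not called with only libraries high in Y-linked transcripts, at log2 fold changes of -9.00, -7.64, -6.50 and -6.57. Matn2, Prg4, Prelp, Col27a1, Cilp2 and Chad did not pass. None of the 14 was called in Blm KO or double KO against WT, where 0.753% and 0.121% of all genes were.

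**Figure D4:**
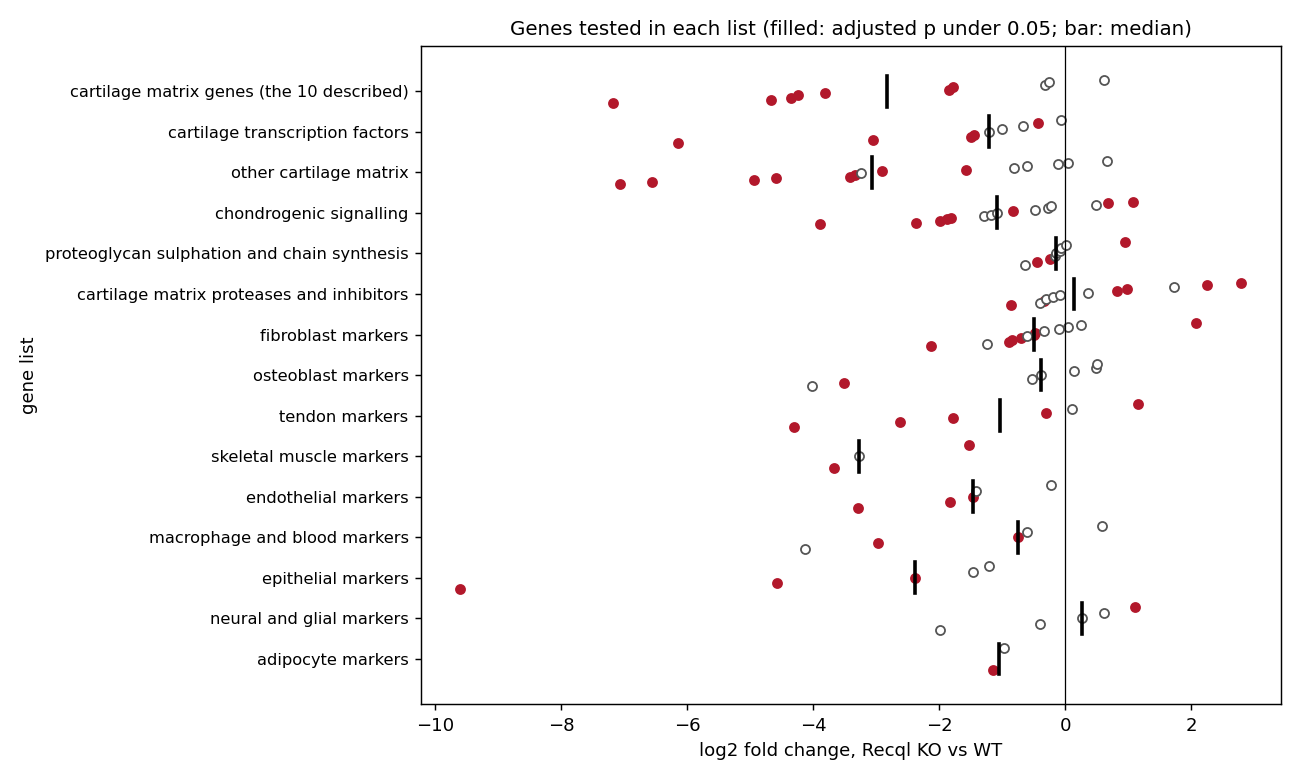
log2 fold change of Recql KO against WT for each tested gene (points) of 15 lists (rows), filled red where the edgeR adjusted p is under 0.05, with the median as a black bar. Medians of the 10 cartilage matrix genes and of further cartilage matrix genes lie near -3, as does that of the 3 tested muscle markers, and those of sulphation and protease genes near 0.

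Signalling and processing genes went both ways in Recql KO. Of 16 chondrogenic signalling genes 15 were tested, with 6 lower and 2 higher, beside 15.6% lower and 14.2% higher over all genes. Chrdl1, a BMP antagonist gene, was 14.9-fold lower, Pth1r, the parathyroid hormone receptor of growth plate cells, 3.50-fold and Tgfb2 1.77-fold, while the BMP receptor gene Bmpr1b was 2.11-fold higher (edgeR adjusted p = 0.00103, 0.00126, 0.00233 and 0.00267). With only libraries high in Y-linked transcripts Tgfb2 and Bmpr1b were not called, at log2 fold changes of -0.64 and 0.93 against -0.83 and 1.07. All 9 genes of proteoglycan sulphation and chain synthesis were tested, of which 2 fell and 1 rose, beside the 29.9% called over all genes. The one that rose was Chst11, a chondroitin sulphotransferase gene (1.93-fold, edgeR adjusted p = 0.0014), and Chsy1, a chondroitin synthase gene, fell 1.37-fold. The Chsy1 call was lost without Recql KO replicate 1 or 2, and that on Impad1, the other gene that fell (1.18-fold), in 9 of the 12 fits that left out a library. Both were also lost with only libraries high in Y-linked transcripts, at log2 fold changes of -0.478 and -0.265 against -0.457 and -0.244. Among 12 matrix proteases and their inhibitors 4 rose and 2 fell, beside 14.2% and 15.6% over all genes. Those that fell were Mmp14, whose call was lost in 8 of the 12 fits that left out a library, and Adamts1, named after its values were seen. The Mmp14 call was also lost with only libraries high in Y-linked transcripts, at a log2 fold change of -0.361 against -0.336. The inhibitor genes Timp1 and Timp3 rose 1.77- and 1.97-fold (edgeR adjusted p = 0.000464 and 0.0182, the latter lost without WT replicate 2 or Recql KO replicate 1). Mmp3, the stromelysin gene, rose 6.94-fold with a mean of 71.7 ± 82.4 CPM in Recql KO, where its levels overlapped those in WT. Its call was lost without any 1 WT library or without Recql KO replicate 3. It was also lost with no filter on low counts, in a fit on these groups alone, with a replicate block and with the Y-linked covariate. With only libraries high in Y-linked transcripts its log2 fold change was 0.44, against 2.79 in all libraries.

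Markers of other cell types moved with the Recql KO label too, and their part in the values above was not tested. Their counts stand beside 15.6% lower and 14.2% higher over all genes. The 7 tendon markers summed to 1684 to 2551 CPM in WT and 3672 to 3911 in Recql KO, with 4 of 6 tested lower and 1 higher. The sum was dominated by Tnc, which rose 2.22-fold. The tendon genes Tnmd, Scx and Thbs4 fell 6.17-, 3.44- and 19.9-fold, the call on Scx being lost without Recql KO replicate 1 or 2. Egr1, named after its values were seen, fell 1.23-fold. Of 9 osteoblast markers 7 were tested and 1 fell (Dmp1, a call lost in 4 of the 12 fits that left out a library), and the list summed to 367.5 to 637 CPM in WT and 518 to 834 in Recql KO. Endothelial markers summed to 12.2 to 20.2 CPM in WT and 3.08 to 4.48 in Recql KO, with 3 of 5 tested lower. In the 12 fits that left out a library the call on Kdr was lost in 5, that on Tek in 3 and that on Emcn in 1. The epithelial sums were 8.54 to 28.2 and 1.30 to 2.70 CPM, with 3 of 5 lower and Krt14 at 0 counts in all 3 libraries labelled Recql KO, and the calls on Krt8 and Krt18 were lost in 1 and 2 of the 12 fits. Muscle markers summed to 41.8 to 61.8 CPM in WT and 8.58 to 22.8 in Recql KO, with 2 of 3 lower (Actc1 and Des, calls lost in 2 and 4 of the 12 fits). Macrophage and blood markers summed to 6.03 to 15.3 and 4.02 to 6.04 CPM, with 2 of 5 lower (Cd68 and Lyz2), and each of these calls was lost in 5 of the 12 fits. Neural and glial markers summed to 27.4 to 52.2 CPM in WT and 61.4 to 78.0 in Recql KO, where Tubb3 rose 2.16-fold, a call lost in 2 of the 12 fits. Adipocyte markers summed to 22.9 to 36.4 and 11.1 to 19.1 CPM, and the call on Fabp4, 2.22-fold lower, was lost in 6 of the 12 fits. Of the fibroblast markers 6 fell and 1 rose, with Col3a1 4.39-fold lower and Col1a1 and Col1a2 1.81- and 1.86-fold lower. The one that rose was Dcn, named after its values were seen (4.22-fold, edgeR adjusted p = 0.0232). Most of the calls named in this paragraph were lost with only libraries high in Y-linked transcripts.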

How the data were processed

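The authors deposited expected counts, RSEM's estimated counts, as an unscaled table with a row per gene symbol and a column per library. Per the submitters' processing notes, Bowtie2 2.1.0 and RSEM 1.2.15 were used with mm10. The annotation, the strand setting and filters on reads are not given in the sources used here. Per the labels' protocols, libraries were made with a stranded mRNA kit. Of a library's values, 17.4% to 20.2% were fractional.

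Expected counts were rounded and tested in R 4.3.3 with edgeR 4.0.16 (filterByExpr by group, TMM scaling, robust quasi-likelihood F test). A mean per group was fitted to all 12 libraries, with 8 residual degrees of freedom and a biological coefficient of variation of 0.209. P-values were Benjamini-Hochberg adjusted over all 14876 tested genes, and an adjusted p under 0.05 was a call. Levels are given in CPM after TMM scaling, with SDs. The SE of a log2 fold change was worked back from the test, as its absolute value divided by the square root of F. Counting intervals and floors cover counting error only. Columns were matched to libraries by the library name in the labels. The 14 further gene lists cover cartilage factors, matrix, signalling, sulphation and proteases, and markers of fibroblasts, osteoblasts, tendon, muscle, endothelium, macrophages and blood, epithelium, neural cells and adipocytes. The genes and lists were chosen with earlier results of these data known. Named are all 10 genes, Blm and Recql, the 10 genes most correlated with Col2a1 among those with a mean of at least 1 CPM, called members of the factor and matrix lists, and up to 4 called members of each other list, by smallest adjusted p in Recql KO or double KO against WT. Members named without a call (Sox5, Matn2, Prg4, Prelp, Col27a1, Cilp2 and Chad) were added after their values were seen. In the table Cnmd stands under its older symbol. Positions and transcript lengths came from GENCODE M21 (mm10), and promoter windows from RefSeq (GRCm38.p6). On simulated counts for Recql KO against WT, run on 14592 genes, 74% of genes changed 2-fold and 96% of those changed 4-fold were recovered. Recovery was 32% at 1.5-fold, and 9 of the 159 calls were false. The changed genes all had a WT mean above 2 CPM, so these shares do not cover rarer transcripts.

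Alternatives were RLE scaling, no filter, DESeq2 1.42.0, a minimum of 1 CPM in at least 3 libraries, fits on the groups compared, a replicate block, the Y-linked level (Uty, Kdm5d, Eif2s3y and Ddx3y, averaged as log2 CPM) as a covariate, only libraries with more than 100 CPM of these genes, and leaving out each library.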

Additional observations from a re-analysis of the deposited data

Results flagged for a closer look

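The change that went with the Recql label differed between the Blm backgrounds for 5 of the 10 genes, tested as the interaction of the labels. The log2 difference between the change seen beside Blm KO (double KO) and that seen beside WT (Recql KO) was 4.14 for Col2a1, 7.89 for Col9a1, 3.62 for Col9a2, 1.56 for Col11a1 and 5.36 for Acan. In each case the gene was lower in Recql KO than in WT, while none of the 5 was called between double KO and Blm KO. The interaction uses the same Recql KO libraries as those comparisons with Recql KO, so it adds no separate evidence. The calls on Col11a1 and Acan were lost in most fits that left out a library. Both were also lost with the Y-linked covariate (edgeR adjusted p = 0.0832 and 0.0595). Groups of 3 libraries are too small for a test of single outlying libraries.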

How the results depend on the processing

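Of the 10 genes, the number called in Recql KO against WT was 7, 6 to 7 with a library left out, and 4 with only libraries high in Y-linked transcripts. In double KO against Recql KO it was 7, 4 to 7 with a library left out, and 2 with only those libraries. For the interaction it was 5, 3 to 5 with a library left out, 3 with no filter, 3 with the Y-linked covariate and 1 with only libraries high in Y-linked transcripts. In double KO against Blm KO it was 1, 0 to 2 with a library left out, 2 with DESeq2, 0 in a fit on those groups and 0 with only libraries high in Y-linked transcripts. For Blm KO and double KO against WT it was 0, 0 in every fit with a library left out, and 1 with DESeq2 for each. The fit on libraries high in Y-linked transcripts has 1 library per knockout label and assumes that it varies like WT. The cause was not tested.

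Over all genes, calls in Blm KO against WT numbered 112, with 31 to 572 when a library was left out, 964 with DESeq2, 43 with the Y-linked covariate and 2 with only libraries high in Y-linked transcripts. For Recql KO against WT these were 4444, 2692 to 4964, and 1128 in the last setting. For double KO against WT they were 18, 8 to 28, 339 with DESeq2, 0 in a fit on those groups, 43 with the covariate and 3 in the last setting. For double KO against Blm KO they were 291, 9 to 585, 1408 with DESeq2, 8 in a fit on those groups and 0 in the last setting. For double KO against Recql KO they were 3681, 2157 to 3875, and 373 in the last setting. For the interaction they were 1554, 549 to 1836, 2625 with DESeq2, 820 with the covariate and 5 in the last setting, and it has no fit on fewer groups.

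Same-numbered replicates did not pair, since 5 of 18 pairs of libraries had a correlation of deviations over 0.1 (from -0.168 to 0.227) and 5 of 12 libraries correlated best with their own number. With the replicate block, calls over all genes were 50 in double KO against WT and 762 in double KO against Blm KO, and no call on the 10 genes changed.

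Signs turned only for values that had not passed. With only libraries high in Y-linked transcripts the log2 fold change of Col9a1 was 0.22 in Blm KO against WT, 0.002 in double KO against WT and -0.22 in double KO against Blm KO, that of Col9a3 -0.42 and -1.22 in the last pair of comparisons, that of Col11a1 -0.51 and of Recql 0.35 in double KO against WT, and that of Sox9 0.013 in double KO against Recql KO. Fmod, called in double KO against Recql KO, is the exception, at -0.37. With the Y-linked covariate Col9a1 was 0.51 and Col11a1 -0.003 in double KO against WT. With a library left out, Col2a1 ran from -0.44 to 0.40 and Col9a3 from -0.55 to 0.39 in Blm KO against WT, and Col11a2 from -0.60 to 0.001 in Recql KO against WT. In double KO against WT the ranges were -0.69 to 0.30 for Col2a1, -0.34 to 0.65 for Col9a3, -0.18 to 0.48 for Col11a1 and -0.35 to 0.12 for Recql. In double KO against Blm KO they were -0.48 to 0.30 for Col2a1 and -0.39 to 0.92 for Col9a3, and for the interaction of Comp -0.32 to 0.63. At this depth the level of Col9a1 in Recql KO rests on 0, 2 and 6 counts.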
